A study of Equus caballus with 8 samples.

Results

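Collagen genes of the beaded, network, fibril-associated and membrane-spanning types were examined in equine BM-MSCs, the mesenchymal stem cells that grow out of aspirated bone marrow as adherent stromal cells. The members were 9 genes picked by symbol, COL6A1, COL6A2, COL6A3, COL8A1, COL8A2, COL12A1, COL13A1, COL16A1 and COL21A1, of 15266 named genes in the table of normalized counts. Cells of 4 horses, D, J, L and W, were each grown as an untreated culture (Control) and as a culture that received 1 ng/ml human recombinant TGF-β2, so that each group held 4 libraries. By the labels the cytokine was present from isolation of the marrow cells up to passage 3 or 4, and the study's methods give 3 passages. All cultures shared low glucose DMEM with 10% fetal bovine serum, to which the methods add bFGF, so the untreated cells were not free of growth factor. Poly(A)-selected RNA was sequenced, and 39184554 to 57228675 reads per library were assigned to named genes.

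Collagens are secreted trimers of chains wound into a triple helix, and the non-fibrillar types organize the surface and the surroundings of the thick type I fibrils. Type VI chains α1, α2 and α3 assemble into beaded microfilaments close to the cell, type VIII chains form short-chain networks best known from Descemet's membrane and vessel walls, and types XII, XVI and XXI belong to the fibril-associated collagens with interrupted triple helices (FACITs). Type XIII is anchored in the plasma membrane and is found at sites of cell adhesion, so COL13A1 lies outside the 3 classes that name the group. TGF-β is a known inducer of matrix synthesis in stromal cells.

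After TGF-β2 treatment COL8A1, COL12A1 and COL21A1 rose and COL13A1 fell, while the 3 type VI genes, COL8A2 and COL16A1 did not pass the test. A gene was called when its Benjamini-Hochberg adjusted p from limma, with the horse as a block, was under 0.05 and its log2 fold change was over 1 in size. Fold changes are on the scale of log2(normalized count + 1). By this rule 4 of the 9 members were called, 3 higher and 1 lower, whereas 14.1% of the 14907 genes tested were called, 6.83% higher and 7.31% lower. The treated and untreated libraries were fully separated for the same 4 members, and for 27.8% of all genes tested. The direction was the same in all 4 horses for 6 of the 9 members and for 51.9% of all genes. Without the horse as a block the same 4 members were called, against 11.5% of all genes. The median log2 fold change was 0.21 over the members and 0.01 over all genes. All 9 members passed the filter on low values. RNA was taken from whole cultures, so a change in the share of cells that carry a transcript and a change in its amount per cell cannot be told apart.

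**Figure D1:**
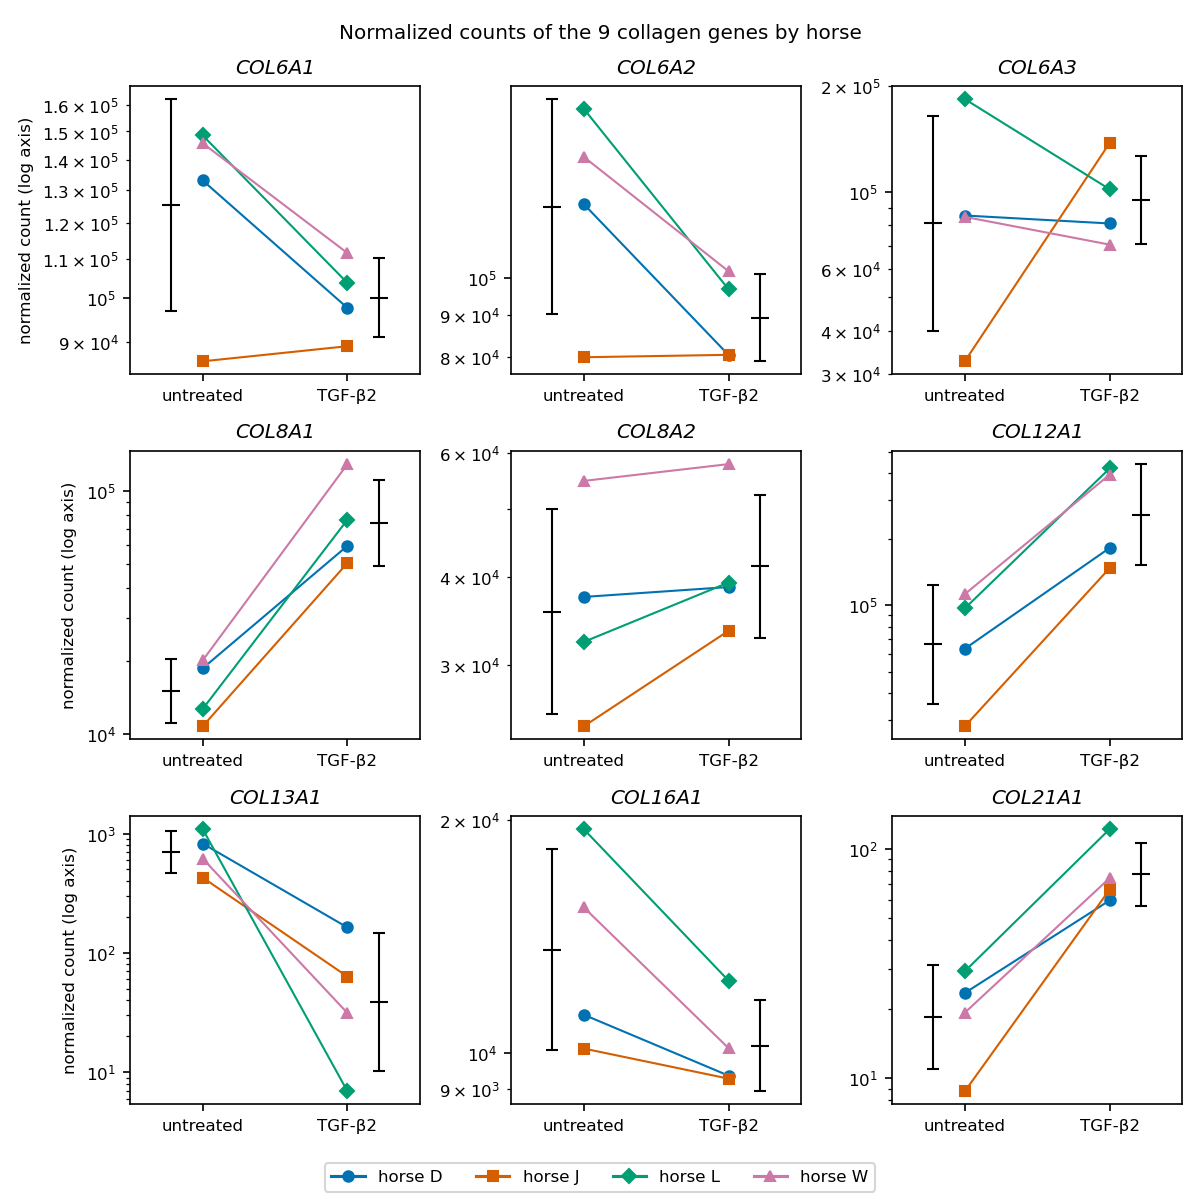
Normalized counts (log axis, scaled separately in each panel) of the 9 collagen genes in untreated and TGF-β2-treated cells. Each coloured line joins the 2 libraries of a horse, and the black marks are the geometric mean with the SD of the log2 values (n = 4). The lines of COL8A1, COL12A1 and COL21A1 go up and those of COL13A1 go down in every horse, and in COL6A3 the line of horse J alone goes up.

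COL8A1 encodes the α1 chain of type VIII collagen. Untreated cells of horses D, J, L and W held 18629, 10749, 12670 and 20077 normalized counts of COL8A1, and the treated cells held 59527, 50615, 76280 and 129153. Each treated library lay above each untreated one, and the rise was 3.20-fold in horse D, 4.71-fold in J, 6.02-fold in L and 6.43-fold in W. The mean went from 15531 ± 4521 to 78894 ± 35155 (SD, n = 4). The log2 fold change was 2.30 (standard error 0.19, 95% confidence interval 1.82 to 2.77), with an adjusted p of 0.00209 from limma, and the gene ranked 349 of all 14907 genes from the largest increase downwards. Of the variation in COL8A1 among the 8 libraries on the log2 scale, 86.7% lay between the treatments and 10.7% between the horses. In a RefSeq annotation of another horse assembly (TB-T2T) the locus LOC106781985 overlaps COL8A1. It held a mean of 67.5 normalized counts untreated and 130 treated, small beside those of COL8A1, and the strand setting of the counting is not given in the sources used here. The same annotation has a locus overlapping each of COL12A1, COL16A1 and COL21A1, which were not analysed here.

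COL8A2, the gene for the α2 chain, was not called. Its normalized counts in horses D, J, L and W were 37458, 24534, 32332 and 54746 without treatment and 38691, 33532, 39265 and 57839 with it. The groups overlapped almost completely, and 87.2% of the variation lay between the horses. The log2 fold change of 0.21 had a 95% confidence interval of -0.08 to 0.51 and an adjusted p of 0.221 from limma. Although each horse was slightly higher after treatment, by 0.05 to 0.45 on the log2 scale, the estimate turned to -0.10 when the libraries were scaled to equal totals instead of by the deposited size factors, a scaling that moved the median of all genes to -0.30.

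COL12A1 encodes the single chain of type XII collagen, a FACIT that decorates type I fibrils in tendon and other dense connective tissue and binds decorin and tenascin-X. Its normalized counts were 63505, 28200, 96914 and 112427 in untreated cells of horses D, J, L and W and 182338, 147671, 419182 and 392884 in treated cells. The lowest treated library was above the highest untreated library, and COL12A1 rose in each horse, 2.87-fold in D, 5.24-fold in J, 4.33-fold in L and 3.49-fold in W. The log2 fold change was 1.96 (standard error 0.20, 95% confidence interval 1.46 to 2.45) with an adjusted p of 0.00328 from limma. The horses kept part of their order across treatment, with L and W above D and J in both groups, and 33.4% of the variation was between horses against 64.8% between treatments.

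COL21A1 encodes the chain of type XXI collagen, a FACIT whose role is little understood. It was sparse, with 13 to 106 reads per library. Untreated cells of D, J, L and W had 23.5, 8.75, 29.2 and 19.3 normalized counts of COL21A1, and treated cells had 59.6, 66.4, 122 and 74.5. The groups did not overlap. The log2 fold change was 2.004 (standard error 0.30, 95% confidence interval 1.26 to 2.74), with an adjusted p of 0.00809 from limma, and single horses ran from 1.31 in D to 2.79 in J. The untreated value of horse J rested on 13 reads, and without that horse the log2 fold change was 1.74, still called.

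COL16A1 encodes the chain of type XVI collagen, a FACIT found near cell surfaces and in skin and cartilage. Its normalized counts were 11215, 10142, 19468 and 15429 in untreated cells of D, J, L and W and 9357, 9274, 12410 and 10154 in treated cells. Every horse had fewer after treatment, but the differences were small and the groups overlapped. The log2 fold change was -0.41 (95% confidence interval -0.71 to -0.11), and the adjusted p of 0.0505 from limma just missed the threshold. DESeq2 with the horse as a term gave an adjusted p of 0.0168 at the same log2 fold change of -0.41, whose size is under the fold threshold. In limma it was 0.0120 with libraries scaled to equal totals (log2 fold change -0.72) and 0.0239 without horse J (-0.50), also under that threshold. With a filter at 50 normalized counts the limma adjusted p was 0.0496, and without the horse as a block it was 0.201. Of the 3 FACIT genes, COL12A1 and COL21A1 were thus higher in all 4 horses and COL16A1 lower in all 4, and the difference between them was not tested.

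COL13A1 encodes the membrane-spanning type XIII chain and was the only member called lower. Untreated cells of horses D, J, L and W held 825, 428, 1090 and 617 normalized counts of COL13A1, and treated cells held 163, 63.2, 6.90 and 31.2. No treated library reached the lowest untreated one, but the size of the fall differed widely, from 5.03-fold in D and 6.68-fold in J to 19.2-fold in W and 138-fold in L. The treated library of horse L rested on 6 reads, above the floor of 3 reads. The log2 fold change was -4.11 (standard error 0.80, 95% confidence interval -6.11 to -2.11), with an adjusted p of 0.0169 from limma, and COL13A1 ranked 90 of all genes from the largest decrease upwards. Without horse L the log2 fold change was -3.11 (adjusted p = 0.0152, limma), and without horse W it was -4.06 with an adjusted p of 0.0837, so the call was lost there. The ratio of the highest to the lowest horse was 2.55 in untreated and 23.7 in treated cells.

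The 3 chains of type VI collagen had no call. COL6A1 had 133170, 85818, 148569 and 145771 normalized counts in untreated cells of D, J, L and W and 97696, 89027, 103798 and 111625 in treated cells. COL6A2 had 123609, 79875, 162206 and 141423 without treatment and 80388, 80428, 96963 and 102059 with it. In both genes D, L and W were lower after treatment and J was nearly level. The log2 fold changes were -0.32 for COL6A1 and -0.46 for COL6A2, with adjusted p of 0.190 and 0.108 from limma and 95% confidence intervals of -0.74 to 0.09 and -0.90 to -0.01. For COL6A2 the adjusted p was 0.0234 with DESeq2 and the horse as a term and 0.0435 in limma without horse J. With libraries scaled to equal totals the log2 fold changes were -0.64 for COL6A1 and -0.77 for COL6A2 (adjusted p = 0.0369 and 0.0266, limma), so that neither passed the fold threshold in these fits. In treated cells the horses lay closer together, with a ratio of highest to lowest of 1.25 for COL6A1 and 1.27 for COL6A2 against 1.73 and 2.03 without treatment. The same annotation (TB-T2T) places COL6A1 and COL6A2 next to each other in the genome.

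COL6A3, the gene for the long α3 chain, had 85391, 32674, 183867 and 84641 normalized counts in untreated cells of horses D, J, L and W. The treated cells had 81030, 137660, 101524 and 70485. Horse J went up 4.21-fold, from the lowest untreated to the highest treated library, while the other horses were lower after treatment, L by 1.81-fold, W by 1.20-fold and D by 1.05-fold. The log2 fold change of 0.22 had a 95% confidence interval of -0.99 to 1.43 and an adjusted p of 0.757 from limma. Without horse J it was -0.40 (adjusted p = 0.192, limma), so the sign of the mean rested on that horse. It was also negative, -0.09, with libraries scaled to equal totals. Treatment took up 2.57% of the variation in COL6A3, horses 31.9%, and 65.6% was left over. With 1 library per horse and treatment, this remainder mixes differing changes of the horses with other differences between cultures and libraries.

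**Figure D2:**
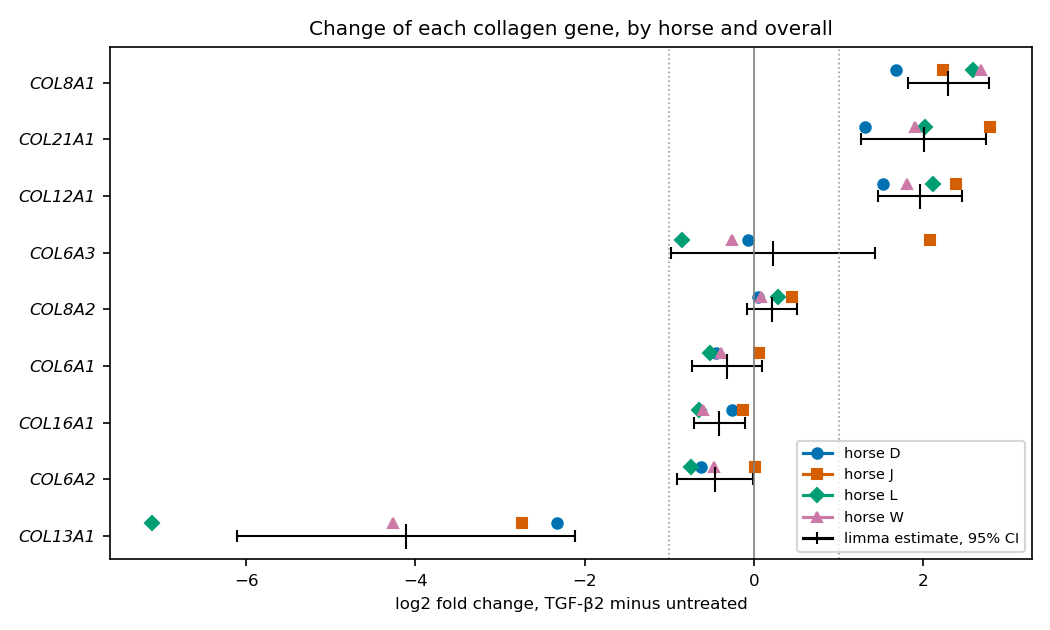
Log2 fold change (TGF-β2 minus untreated, on log2(normalized count + 1)) of each collagen gene. Coloured points are the 4 horses, black bars the limma estimate with its 95% confidence interval, and dotted lines the fold threshold of 1. The intervals of COL8A1, COL21A1 and COL12A1 lie wholly above 1 and that of COL13A1 wholly below -1, and the single point of COL6A3 beyond 2 is horse J.

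Horse J had low levels among the untreated cultures. Its untreated library was the lowest of the 4 for 9 of the 9 members, whereas it was the lowest for 35.8% of all genes tested. On the log2 scale it lay 0.42 to 1.31 below the mean of the untreated group, the most for COL6A3 and COL12A1. In some members the gap to the next horse was small, as in COL16A1, and Dixon's test, applied to each member in each group, marked 0 of 18 groups as holding an outlying library. After treatment the library of J was the lowest for 5 members, against 29.8% of all genes. The untreated library of J was also the most deeply sequenced, with 57228675 reads. Among untreated libraries it held the lowest sum of the stromal surface markers ITGB1, CD44, THY1, NT5E and ENG. This sum was 138766 normalized counts against 176067 to 309522. The spread of this sum was mostly that of THY1, which ran from 24238 to 199815 in untreated libraries, against 70290 to 85751 for ITGB1. The low level was not particular to the members. Untreated J also had the lowest sum of the matrix partners, 61126 normalized counts against 198842 to 227078. The collagen receptors, 121719 against 151180 to 181448, and the share of type I reads, 0.616% against 1.35% to 4.73%, were also lowest there. Untreated J was instead highest for the TGF-β response genes, 112676 against 79094 to 108292. It was also highest for the other collagens of the same classes, 574 against 115 to 130. The part of depth and of surface markers in the levels of the collagens was not tested. With horse J left out, the same 4 members were called. The spread between horses was smaller in treated than in untreated cells for 7 of the 9 members, as it was for 65.2% of all genes, and COL8A1 and COL13A1 were the exceptions.

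**Figure D3:**
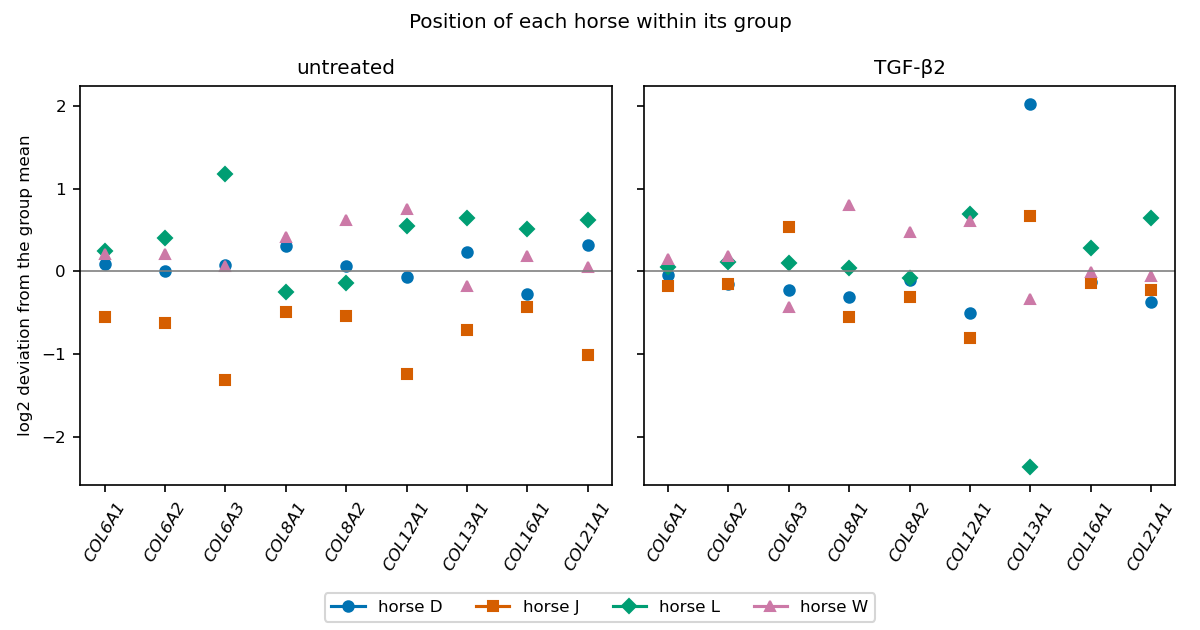
Log2 deviation of each library from the mean of its group for the 9 collagen genes, untreated on the left and TGF-β2-treated on the right, one point per horse. Horse J is the lowest point for every gene in the untreated panel, and COL13A1 has the widest spread in the treated panel.

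To ask whether chains of one collagen changed by unequal amounts, ratios of normalized counts were compared between the groups. Transcript length cancels in the change of a ratio with treatment but not in the ratio itself, which is no measure of chain proportions. The ratio of COL8A2 to COL8A1 was 2.01, 2.28, 2.55 and 2.73 in untreated cells of D, J, L and W and 0.650, 0.662, 0.515 and 0.448 in treated cells. It was lower after treatment in all 4 horses and without overlap, with a log2 difference of -2.08 ± 0.45 (SD of the horses, n = 4), or 4.23-fold. The two-sided exact permutation test gave p = 0.0286, the smallest value that 4 libraries against 4 allow, and p = 0.0714 after Benjamini-Hochberg adjustment over the 5 ratios examined, which does not pass 0.05. Exchanging treated and untreated only within horses, the exact p was 0.125, again the smallest possible. For type VI, the ratio of COL6A2 to COL6A1 lay between 0.823 and 1.09 in all 8 libraries and was lower after treatment in all 4 horses, by a small amount, with a log2 difference of -0.13 ± 0.08 (exact permutation p = 0.0857, adjusted 0.143, and 0.125 within horses). The ratio of COL6A3 to COL6A1 had a log2 difference of 0.54 ± 1.03, and only 0.05 without horse J. Its exact permutation p was 0.257, adjusted 0.286, and 0.375 within horses.

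Type I collagen, encoded by COL1A1 and COL1A2, is the main fibril-forming collagen of tendon and served as the reference for the non-fibrillar types. The summed normalized counts of the 3 type VI genes per summed count of the 2 type I genes were 0.656, 0.836, 0.249 and 0.418 in untreated cells of D, J, L and W and 0.113, 0.130, 0.0883 and 0.0765 in treated cells. This ratio was lower in all 4 horses, with a log2 difference of -2.29 ± 0.54, and the groups were apart. The exact permutation p was 0.0286, adjusted 0.0714, and 0.125 within horses. The denominator rose, as the 2 type I genes took 0.616% to 4.73% of untreated reads and 4.90% to 7.01% of treated reads. In horse J the type VI share also rose, from 0.515% to 0.677% of reads, as type I went from 0.616% to 5.21%. The ratio therefore does not show how far type VI itself changed. The ratio of COL12A1 to COL1A1 showed no common direction, although COL12A1 itself rose in each horse. The ratio was lower after treatment in D, J and W, with log2 differences of -1.16, -1.33 and -0.75, and higher in L, with 1.07. The mean was -0.54 (exact permutation p = 0.286, adjusted 0.286, and 0.375 within horses). Horse L started from the lowest untreated ratio, 0.104, against 0.264 to 0.323 in the others, and without it the mean difference was -1.08.

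**Figure D4:**
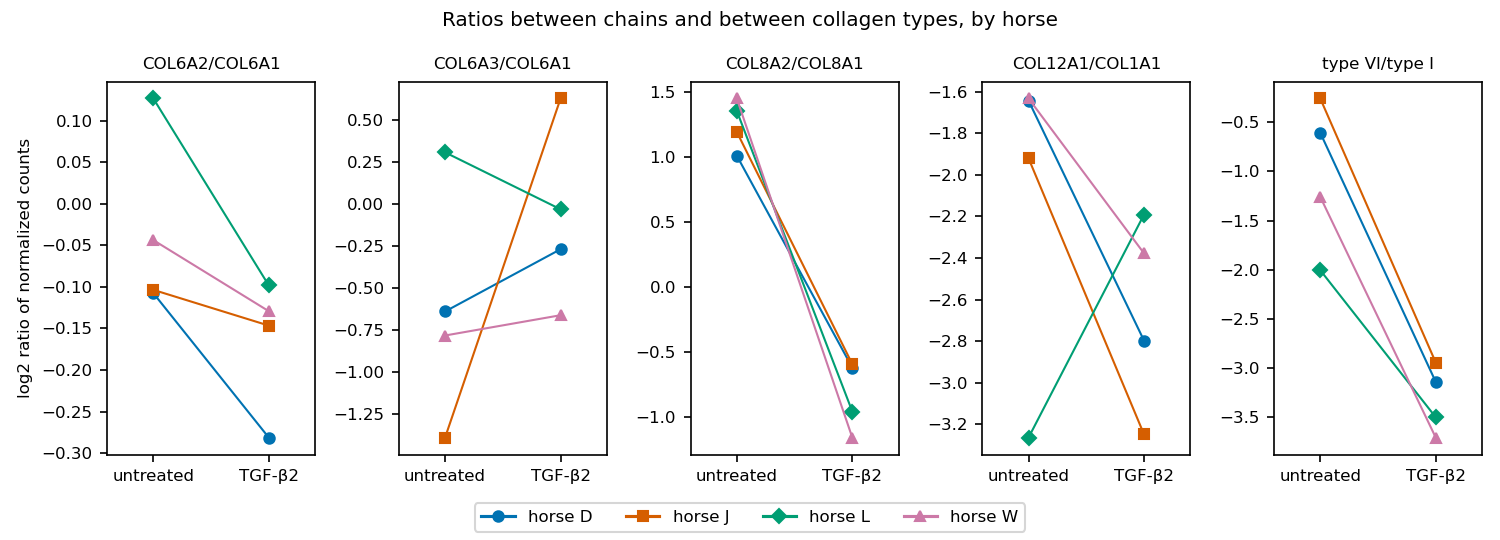
Log2 ratios of normalized counts between collagen chains or types in untreated and TGF-β2-treated cells, one line per horse, with a separate axis in each panel. COL8A2/COL8A1 and type VI/type I go down in all horses, COL6A3/COL6A1 goes up mainly in horse J, and COL12A1/COL1A1 goes up in horse L.

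Genes with the most similar profile were sought for each member as the 2 highest Pearson correlations over the 8 libraries. These libraries come from 4 horses in 2 groups, so the values describe likeness and carry no test. COL12A1 was closest to LOC100055965 (r = 0.993, Spearman rho = 0.976) and to LOX (r = 0.988, rho = 0.905), which encodes the lysyl oxidase that cross-links collagen. COL8A1 was closest to GRK2 (r = 0.986, rho = 0.976) and to CDH2 (r = 0.983, rho = 0.976), the gene of N-cadherin. COL21A1 was closest to NCKAP5L and ZNF827 (both r = 0.994), and COL13A1 to SEM1 (r = 0.973) and C28H12orf73 (r = 0.971). Among the uncalled members, the nearest genes were THRA and CD248 for COL6A1, LOC100059060 for COL6A2, MIB1 and ZSWIM6 for COL6A3, CETN2 and PNISR for COL8A2, and ZNF696 and LOC102149550 for COL16A1, with r from 0.956 to 0.991. Between members, COL6A1 and COL6A2 were the most alike (r = 0.977), followed by COL12A1 and COL21A1 (r = 0.934).

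Of 15 other collagens of the same classes, 3 were analysed here. COL6A6, a further type VI chain, was below the filter, with 3.04 to 37.7 normalized counts in untreated and 0 to 8.05 in treated cells. COL9A2, of the FACIT type IX, and COL23A1, a membrane-spanning collagen, were tested and not called by limma, with log2 fold changes of 0.25 and -0.03. Neither had an unadjusted p under 0.05, and 0 were called by edgeR and 0 by DESeq2.

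Among the cell-surface receptors for collagens, 2 of 10 tested were called higher and 1 lower, against 6.83% and 7.31% of all genes. ITGA2, the α2 integrin subunit, rose from 23.3 ± 15.2 normalized counts in untreated cells to 670 ± 138 in treated cells (SD, n = 4), with a log2 fold change of 4.94 (adjusted p = 0.00219, limma). ITGA11, the α11 subunit, rose by 2.41 on the log2 scale with an adjusted p of 0.0491 from limma, or 0.0649 without the horse as a block, where it was not called. Its change in single horses ran from 0.67 to 5.12 on the log2 scale. With 942 normalized counts, untreated J was again the lowest of its group for this gene. ANTXR1, which encodes a receptor reported to bind type VI collagen, fell from 18318 ± 7237 to 6923 ± 1632, a log2 fold change of -1.32 (adjusted p = 0.0431, limma), and was lower in 3 of 4 horses. The related ANTXR2 had a log2 fold change of -0.58, ITGA1, the α1 integrin subunit, of 0.61, and ITGB1, the β1 subunit that pairs with these integrins, of 0.91. These 3 had adjusted p of 0.0245, 0.0264 and 0.0159 from limma and missed the fold threshold only. CSPG4, DDR1, DDR2 and ITGA10 were not called either.

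Of 6 matrix partners tested, 2 were called higher and 1 lower, against 6.83% and 7.31% of all genes. TNC (tenascin-C) and BGN (biglycan, which binds type VI collagen) were higher, with log2 fold changes of 2.33 and 1.49. TNXB, the gene of the tenascin that binds type XII collagen, was called lower, with a log2 fold change of -1.61, an adjusted p of 0.0227 from limma and of 0.0772 without the block. DCN (decorin), which binds types VI and XII, had a log2 fold change of -1.15 with an adjusted p of 0.243 from limma. MATN4 was lower in all 4 horses and missed the fold threshold only, with a log2 fold change of -0.73. Its adjusted p was 0.0415 from limma and 0.310 without the block. FMOD was not called either, with a log2 fold change of 0.50. Of the proteinases that cut members, BMP1, FURIN and MMP14, 0 of 3 were called by limma, edgeR or DESeq2. BMP1 and FURIN, 2 of 3 with an unadjusted p under 0.05, missed the fold threshold only, with log2 fold changes of 0.99 and 0.67, adjusted p of 0.0176 and 0.00589 from limma and higher values in 4 of 4 horses.

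The labels were checked against marker genes. Among genes of the TGF-β response, SKIL, TGFBI and CTGF were called higher, and SMAD7 had a log2 fold change of 0.02. All 5 stromal surface markers were present in each library, and THY1 (CD90) was called lower, with a log2 fold change of -2.21 (adjusted p = 0.00203, limma). Summed leukocyte markers, of which 6 of 9 were analysed, were lower after treatment in all 4 horses, going from 74.0 to 36.9 normalized counts in D, from 298 to 58.9 in J, from 299 to 151 in L and from 224 to 85.3 in W. CD3E was below the filter, at 0 in every treated library and at 0 to 112 normalized counts in untreated ones (32.0 ± 53.7, SD, n = 4). Of the 4 leukocyte markers tested, limma called 0 (1 at an unadjusted p under 0.05, 1 by DESeq2 with the horse, 0 by edgeR). CDH5, the 1 endothelial marker analysed of 4, had 6.09 to 23.8 normalized counts, and the adipocyte marker ADIPOQ, 1 of 3 analysed, rose from 13.5 ± 9.57 to 116 ± 52.9. Of the cartilage markers, with 3 of 4 analysed, SOX9 was called higher, with a log2 fold change of 1.21, and ACAN and COMP were not. The summed level of the 3 genes, SOX9 included, was 669 to 1265 normalized counts in untreated and 1401 to 2509 in treated libraries. SOX9 was not called with libraries scaled to equal totals or without horse D or W, and ADIPOQ was not called without horse D. The part of these cell types in the collagen changes was not tested.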

How the data were processed

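RNA was sequenced from 8 libraries, 4 horses with 1 untreated and 1 TGF-β2-treated culture each, grouped by their labels and paired by the horse. The authors trimmed reads with Trimmomatic 0.36, mapped them to EquCab 3.0 with STAR 2.5.2b, counted unique hits per gene with featureCounts (Subread 1.5.2) and used DESeq2. The deposited values are a signal, gene counts divided by a size factor per library. Of 15267 rows, 1 lacked a gene name and was dropped (0.0281% to 0.0531% of reads). Whole reads were recovered as multiples of the value of 1 read, and 100% of the values were whole within 0.001 reads. Depth intervals and the floor of 3 reads cover counting error only.

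The main test was limma 3.58.1 (eBayes with trend, R 4.3.3) on log2(normalized count + 1) with the horse as a block, over the 14907 genes that reached 10 normalized counts in 4 or more libraries. Deviations from the group means correlated across genes between libraries of one horse (mean 0.480, range 0.386 to 0.609), against a mean of -0.159 for different horses. The deviations cancel within a group, so the mean for different horses largely follows from the other mean and is no separate check. Ratios were tested by exact permutation, two-sided, in Python 3.11.15. Alternatives were no block, pseudocounts of 0.5 and 5, no filter and a filter at 50, other scalings, no trend, edgeR 4.0.16 and DESeq2 1.42.0 on recovered reads, other thresholds, and each horse left out. On simulated reads of 14907 genes, 200 of them changed by a log2 fold change of 2, the blocked limma fit recovered 200 with 2 other calls. The simulation used 1 dispersion for all genes and gave each horse the same deviation in both treatments. Changes that differ between horses, as in COL6A3 and COL13A1, were not simulated, so the recovery does not carry over to such genes. The members and gene lists, and the rule that every member and the 2 genes most like each are named with values for list genes that were called, were chosen with earlier results of these data known. A few items covered by the rule are not reported here. List genes without a call that are named were chosen after their values were seen. No per-length levels were computed, so levels are not compared between genes.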

Additional observations from a re-analysis of the deposited data

How the results depend on the processing

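COL8A1, COL12A1 and COL21A1 were called higher in the limma fit with the horse as a block and in all 18 alternatives, with log2 fold changes of 1.98 to 2.504, 1.64 to 2.10 and 1.70 to 2.24. The alternatives with other thresholds reuse the main fit, and the one without a fold threshold keeps all its calls by construction. COL13A1 was not called at an adjusted p under 0.01, where 0 members were lower, or without horse W. With each horse left out in turn, 0 to 1 members were called lower and 1080 (without W) to 2442 (without J) of all genes were called, against 2108 with every horse and 1173 without D. Other counts over all genes were 1116 at an adjusted p under 0.01, 4610 without a fold threshold and 1709 without the replicate block, which changed no call of a member. Scaling to equal totals called 2529 genes, 27.6% of them higher against 48.3% with the deposited scaling, and turned the log2 fold changes of COL6A3 to -0.092 and of COL8A2 to -0.10, while COL6A1 moved to -0.64. With each horse left out in turn COL6A3 ran from -0.40 (without J) to 0.58 (without L). The cause was not tested in any of these. With permutation within horses as the replicate block, the ratios COL8A2/COL8A1 (-2.08), type VI/type I (-2.29) and COL6A2/COL6A1 (-0.13) each had an adjusted p of 0.208, in a design whose smallest exact p is 0.125. Of the genes in the lists, ITGA11 was called in 10 of 18 alternatives, ANTXR1 in 13, TNXB in 15, BGN in 17, SOX9 in 14, ADIPOQ in 15 of 17, and ITGA2, TNC and THY1 in 18. Depth limited COL21A1 and treated COL13A1, with 13 to 106 and 6 to 137 reads per library.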

Other observations

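The summed normalized counts of the 9 collagen genes were higher after treatment in all 4 horses, going from 473825 to 549250 in D, from 272428 to 548337 in J, from 657146 to 849550 in L and from 575150 to 874305 in W. As shares of all reads, which correspond to scaling by totals, they held 1.23%, 0.707%, 1.57% and 1.42% of the reads of the untreated libraries of horses D, J, L and W and 1.18%, 1.21%, 1.58% and 1.65% of the treated ones. Within this, the 3 type VI genes took between 0.515% and 1.18% of the reads in untreated libraries and between 0.537% and 0.677% in treated ones. COL12A1 alone took between 0.0732% and 0.277% without treatment and between 0.326% and 0.782% with it. Shares of reads depend on transcript length and on the other genes of a library, and the 2 type I genes took 0.616% to 4.73% of untreated and 4.90% to 7.01% of treated reads.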
